A study of Mus musculus with 9 samples.

Results

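The H3R2me2a peak lists of Igf2bp2 knockout cells (Igf2bp2KO) were compared directly with those of Prmt6 knockout cells (Prmt6KO), without wild-type cells. The members were the 4 H3R2me2a libraries of these genotypes, 2 of each, out of 9 samples in the series. Within each library they were the peaks on chromosomes 1 to 19 whose summit held 8 or more sequenced fragments. These were 912 and 1112 peaks in Igf2bp2KO replicates 1 and 2, out of 1028 and 1261 listed. In Prmt6KO replicates 1 and 2 they were 1159 and 5229 peaks, out of 814517 and 431638 listed.

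The samples were mouse bone marrow cells that the design text of the series calls leukemia cells. All 4 libraries came from cells grown with stem cell factor and interleukins 3 and 6, fixed with formaldehyde and sonicated, then precipitated with the same H3R2me2a antibody. The labels give each knockout as a genotype only, with no animal age, strain, leukemia driver or details of the deleted allele. They do not say whether replicates were separate animals or cultures, so the spread between libraries of a knockout may be technical. Each permutation p-value rests on the 6 splits of these 4 libraries alone.

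H3R2me2a is asymmetric dimethylation of arginine 2 of histone H3, a mark written chiefly by the arginine methyltransferase PRMT6. The mark is known for opposing methylation of the neighbouring lysine 4 of the same histone tail by the enzymes that mark active promoters. IGF2BP2 is a cytoplasmic RNA-binding protein that reads N6-methyladenosine (m6A) on messenger RNA and stabilises its targets, so it has no known catalytic role at this arginine. Setting the knockouts side by side asks where the antibody signal differs between cells without the enzyme and cells without the RNA reader. The lists hold no measure of either protein.

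Most peaks of 20 or more fragments in either knockout overlapped a peak of the other. They lay in arrays of related genes, such as those of chromosomes 5 and 8, and at a few very tall sites outside genes. At 8 or more fragments and an overlap of 1 bp or more, few regions stood in both libraries of one knockout and neither of the other. Of 6245 regions made by merging the peaks of the 4 lists, 243 (3.89%) had a peak in all 4 libraries. Another 22 (0.352%) had one in both Igf2bp2KO libraries and neither Prmt6KO library, and 61 (0.977%) had one in both Prmt6KO libraries and neither Igf2bp2KO library. Requiring both libraries set these last counts. With 1 library left out in turn they ran from 35 (without Prmt6KO 1) to 299 (without Igf2bp2KO 1) and from 94 (without Igf2bp2KO 2) to 4510 (without Prmt6KO 1). The shared count was 387 without Prmt6KO 1. The counts also depended on height and rule. At 12 or more fragments 81 regions were shared, 72 were of Igf2bp2KO alone and 8 of Prmt6KO alone. With summits matched within 200 bp the counts were 105, 113 and 60.

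Promoter sequences were called in the same 3 ways, by the peaks that overlap the promoter itself. The promoters are RefSeq windows of assembly GRCm38.p6 (mm10), running 250 bases before to 50 bases after a gene's start. Capitals mark the bases under a peak of 8 or more fragments in every library that makes the call. Of 31396 such windows on chromosomes 1 to 19, 4 (0.0127%) had a peak in all 4 libraries, 2 (0.00637%) in Igf2bp2KO alone and 7 (0.0223%) in Prmt6KO alone. Gm21190 (chr5:15529173-15529472, minus strand) and Gm21119 (chr8:20614677-20614976, plus strand) were among the 4. Gm10354 (chr5:14978850-14979149, minus strand) was called in Igf2bp2KO alone. Sp140 (chr1:85600453-85600752, plus strand) and Zfp979 (chr4:147642459-147642758, minus strand) were called in Prmt6KO alone. These calls are narrower than those of regions: of the 7, 1 lay in a region of Prmt6KO alone, and 2 touched shared regions. The sequences are shown because they are those under the peaks that the calls rest on. Read 5′ to 3′ along the gene, these are:
Gm21190: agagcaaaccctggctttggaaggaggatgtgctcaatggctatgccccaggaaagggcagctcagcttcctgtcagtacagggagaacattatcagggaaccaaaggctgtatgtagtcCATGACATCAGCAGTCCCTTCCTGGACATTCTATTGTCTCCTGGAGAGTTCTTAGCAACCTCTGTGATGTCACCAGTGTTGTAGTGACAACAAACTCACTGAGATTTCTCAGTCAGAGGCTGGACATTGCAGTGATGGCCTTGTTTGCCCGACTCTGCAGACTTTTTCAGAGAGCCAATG
Gm21119: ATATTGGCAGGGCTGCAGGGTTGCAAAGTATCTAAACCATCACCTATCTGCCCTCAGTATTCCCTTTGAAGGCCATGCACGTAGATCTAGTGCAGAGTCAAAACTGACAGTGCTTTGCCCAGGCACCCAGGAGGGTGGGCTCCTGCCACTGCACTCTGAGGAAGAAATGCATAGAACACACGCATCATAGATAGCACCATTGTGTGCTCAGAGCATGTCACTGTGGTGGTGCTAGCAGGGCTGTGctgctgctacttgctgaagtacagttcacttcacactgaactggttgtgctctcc
Gm10354: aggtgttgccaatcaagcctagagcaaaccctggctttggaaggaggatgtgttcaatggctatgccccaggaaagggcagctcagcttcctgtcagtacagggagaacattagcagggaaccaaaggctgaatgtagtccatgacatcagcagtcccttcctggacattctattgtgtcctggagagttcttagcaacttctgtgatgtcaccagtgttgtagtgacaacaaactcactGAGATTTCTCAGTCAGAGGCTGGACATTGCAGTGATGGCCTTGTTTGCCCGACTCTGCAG
Sp140: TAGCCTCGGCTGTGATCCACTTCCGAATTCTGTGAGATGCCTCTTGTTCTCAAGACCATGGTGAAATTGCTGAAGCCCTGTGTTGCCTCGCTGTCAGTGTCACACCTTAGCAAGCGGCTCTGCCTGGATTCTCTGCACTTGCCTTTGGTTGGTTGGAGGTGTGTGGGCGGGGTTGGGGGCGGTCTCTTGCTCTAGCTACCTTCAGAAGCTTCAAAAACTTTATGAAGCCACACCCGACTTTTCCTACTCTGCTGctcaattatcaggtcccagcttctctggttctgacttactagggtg
Zfp979: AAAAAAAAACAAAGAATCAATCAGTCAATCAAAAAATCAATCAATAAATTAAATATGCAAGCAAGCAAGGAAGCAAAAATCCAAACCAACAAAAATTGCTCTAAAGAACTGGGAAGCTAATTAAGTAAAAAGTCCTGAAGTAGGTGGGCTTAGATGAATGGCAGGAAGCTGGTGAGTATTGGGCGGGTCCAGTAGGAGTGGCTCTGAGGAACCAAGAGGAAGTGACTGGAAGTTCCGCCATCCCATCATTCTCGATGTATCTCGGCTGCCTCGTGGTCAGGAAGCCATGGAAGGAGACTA

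The pair of predicted genes in the Speer neighbourhood of chromosome 5 shows how near a call in all 4 libraries can be to a call in one knockout. Placed at a shift of 20 bases, the Gm10354 and Gm21190 windows agreed at 275 of 280 bases (98.2%). Their summits, in the order Igf2bp2KO 1, Igf2bp2KO 2, Prmt6KO 1 and Prmt6KO 2, held 14, 11, 5 and 6 fragments at Gm10354 and 23, 14, 8 and 14 at Gm21190. Both windows were thus marked in all 4 lists, and at Gm10354 the Prmt6KO peaks were below 8 fragments. In the window of Sp140, a bromodomain protein of immune cells, the Prmt6KO summits held 9 and 11 fragments and neither Igf2bp2KO list had a peak. In that of Zfp979, a zinc finger gene, the Prmt6KO summits held 8 and 11 fragments with none listed in Igf2bp2KO. The merged regions around both windows were not of Prmt6KO alone, since each also held a peak of an Igf2bp2KO library outside the window.

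Promoters of these kinds, like those with a peak in any library, were poor in CpG and rich in sequence that recurs elsewhere. The median number of CpG dinucleotides was 2 in the 13 windows, 2 in the 61 with a peak in any library and 7 in all windows. A run of 30 bases also found in another gene's window stood in 9 of the 13 (69.2%), in 54.1% of the 61 and in 21.1% of all. In Gm21190 and Gm21119 every such run recurred, and in Sp140 78.2% did. The other promoters with a peak in all 4 libraries were Mroh2a and Gm40237, the other one in Igf2bp2KO alone was Gm40369, and the others in Prmt6KO alone were 4931408C20Rik, Duxf3, Gm52861, Gm51573 and Gm40504.

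The lists reach different depths, and this bears on every count that follows. The background behind the authors' fold enrichment was constant within each list and stood at 1.45, 1.34, 0.736 and 1.21 fragments in Igf2bp2KO 1, Igf2bp2KO 2, Prmt6KO 1 and Prmt6KO 2. A summit of 8 fragments was therefore 5.51, 5.99, 10.9 and 6.62 times background. The lowest listed summit held 8 and 7 fragments in Igf2bp2KO, and 2 and 3 in Prmt6KO. All chosen Prmt6KO peaks had a q of 0.05 or below by the authors' peak caller, as against 104 and 89 of the Igf2bp2KO peaks.

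Just above their lowest summit the Igf2bp2KO lists were thin. Igf2bp2KO 1 listed 5 peaks at exactly 8 fragments, 77 at 10 and 141 at 12, and Igf2bp2KO 2 listed 90, 191 and 134. Prmt6KO 1 listed 663, 90 and 27 at the same heights, and Prmt6KO 2 listed 3344, 345 and 99. The Prmt6KO counts thus fell with every step, while the Igf2bp2KO counts first rose. A peak of 8 to 11 fragments missing from an Igf2bp2KO list may therefore be a peak that was not listed, so values at 12 or more fragments are given beside those at 8. This second height was chosen with earlier results known. It is not clear of the thinning in Igf2bp2KO 1, which listed 136 peaks at 11 fragments, 141 at 12 and 106 at 13. A summit of 12 fragments was 8.26, 8.99, 16.3 and 9.93 times background in Igf2bp2KO 1, Igf2bp2KO 2, Prmt6KO 1 and Prmt6KO 2.

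**Figure D1:**
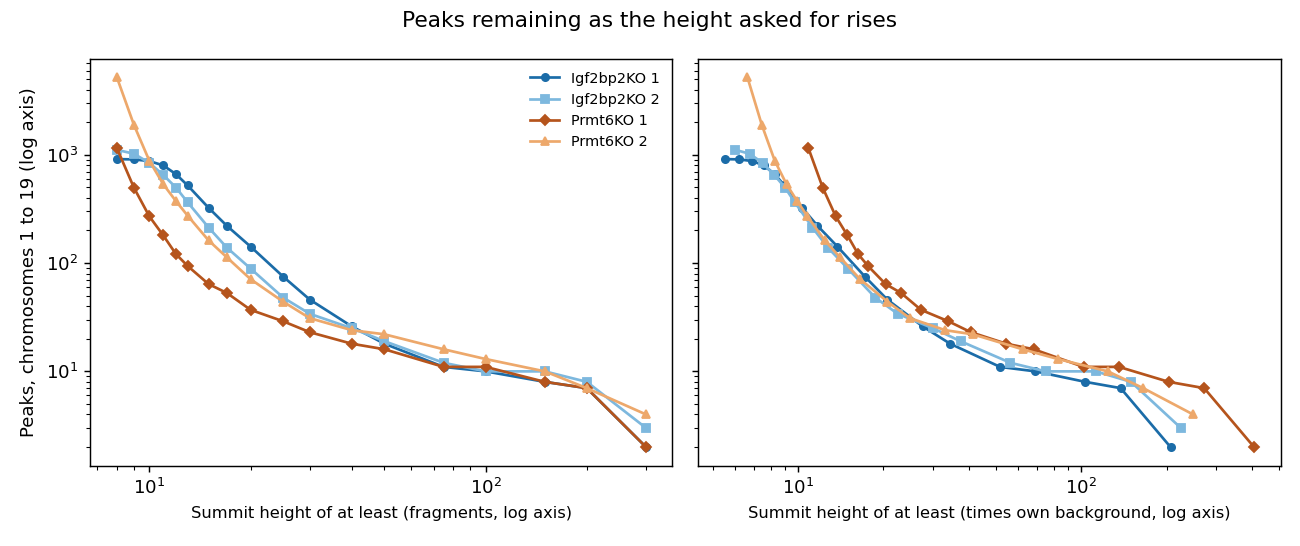
Number of peaks on chromosomes 1 to 19 (vertical, log scale) at or above each summit height, in fragments on one panel and in multiples of the library's own background on the other (horizontal, log scale), one line per library. At 8 fragments the counts run from 912 to 5229, while at 15 times background they run from 75 to 121.

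Which knockout had more peaks depended on the height. At 8 or more fragments the Igf2bp2KO lists held 1012 ± 141 peaks and the Prmt6KO lists 3194 ± 2878 (mean ± SD, n = 2 libraries), a log2 difference of −1.29 for Igf2bp2KO minus Prmt6KO (two-sided exact permutation p = 0.333, the smallest that 2 libraries against 2 allow). Without Prmt6KO 2 it was −0.20 and without Prmt6KO 1 it was −2.38. At 12 or more fragments the order turned, with 662 and 498 peaks in Igf2bp2KO and 121 and 373 in Prmt6KO, a log2 difference of 1.43. At 10 or more times the library's own background the counts were 324 and 279 in Igf2bp2KO and 1159 and 274 in Prmt6KO. At 15 or more times they were 104, 75, 121 and 78. On this last scale the knockouts overlapped, and Prmt6KO 1, with the lowest background, held the most peaks.

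Peaks covered 0.443 and 0.514 Mb in Igf2bp2KO and 0.983 and 2.90 Mb in Prmt6KO at 8 or more fragments. The log2 difference in covered length was −1.82 (exact permutation p = 0.333), and −1.04 without Prmt6KO 2. At 12 or more fragments it was −0.075 (exact permutation p = 1.0), with 0.367 and 0.333 Mb against 0.231 and 0.588 Mb, so the groups overlapped. Single peaks were narrower in Igf2bp2KO, with median widths of 326 and 304 bp against 516 and 358 bp, a mean difference of −122 bp (exact permutation p = 0.333) that ran from −43 bp without Prmt6KO 1 to −201 bp without Prmt6KO 2. The widths at 12 or more fragments were 359 and 418.5 bp against 1207 and 1062 bp, further apart than at 8, while over every listed peak the mean difference was 101 bp. A peak caller of this kind sets a peak's edges where the pileup falls to the list's own lowest height, which differed between the knockouts as given above, and the part of this in the widths was not tested.

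Sharing rose with height in all 4 lists. Among peaks of 8 or 9 fragments, 62.2% and 54.1% of the Igf2bp2KO peaks overlapped a peak in either Prmt6KO library, and 20.7% and 5.36% of the Prmt6KO peaks overlapped one in either Igf2bp2KO library. Among peaks of 12 to 19 fragments the shares were 87.3% and 87.3% in Igf2bp2KO and 83.3% and 81.1% in Prmt6KO. The Wilson 95% intervals of these last 4 shares, which cover counting error alone, all overlapped. Of peaks of 20 or more fragments, 138 of 142 and 89 of 89 were shared from the Igf2bp2KO side. From the Prmt6KO side it was 37 of 37 in replicate 1 and 62 of 71 in replicate 2. Low peaks were also seldom shared within a knockout. At 8 or 9 fragments, 29.7% and 23.3% of the Igf2bp2KO peaks overlapped the other library of their own knockout. For Prmt6KO it was 24.1% and 3.13%. At 12 to 19 fragments these shares were 56.3% and 62.3% in Igf2bp2KO and 92.9% and 58.3% in Prmt6KO. Shares within a knockout are in 1 library and those between knockouts in either of 2, so their sizes cannot be compared directly.

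**Figure D2:**
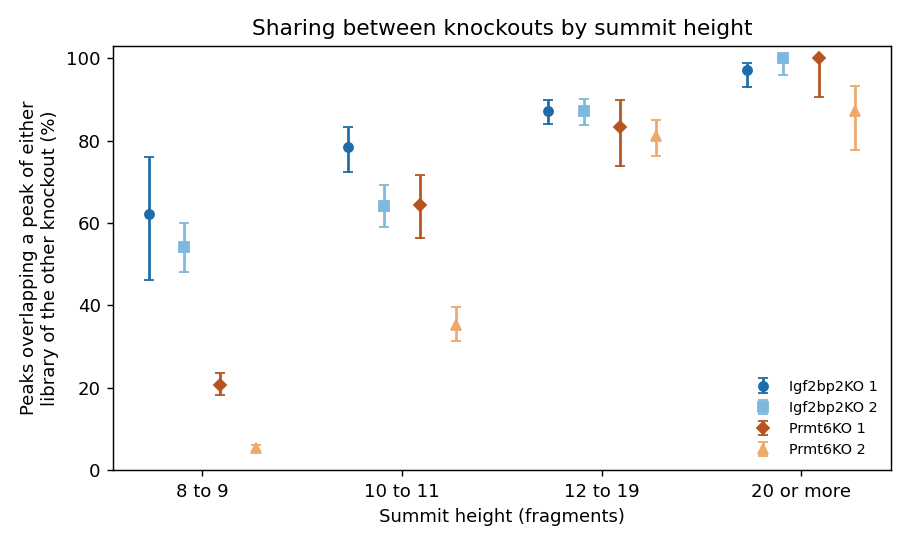
Share of each library's peaks that overlap a peak of 8 or more fragments in either library of the other knockout (vertical, percent), by summit height in fragments (horizontal), with Wilson 95% intervals. The libraries spread from 5.36% to 62.2% at 8 to 9 fragments and from 81.1% to 87.3% at 12 to 19.

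Libraries of one knockout did not always share more peaks with each other than with the other knockout. Among a library's 3 overlaps, the one with its own replicate was the highest for Prmt6KO 1, the lowest for Prmt6KO 2 and the middle one for both Igf2bp2KO libraries. Of the Igf2bp2KO 1 peaks, 56.7% overlapped Igf2bp2KO 2, 54.1% overlapped Prmt6KO 1 and 80.5% overlapped Prmt6KO 2. Of the Igf2bp2KO 2 peaks, 45.8%, 40.4% and 70.0% overlapped Igf2bp2KO 1, Prmt6KO 1 and Prmt6KO 2. The longest list, Prmt6KO 2, thus held more of each Igf2bp2KO list than the other Igf2bp2KO library did. Of the Prmt6KO 1 peaks, 37.7% overlapped Prmt6KO 2, with 29.6% and 26.6% in the Igf2bp2KO libraries. Of the Prmt6KO 2 peaks, 9.18% overlapped Prmt6KO 1, with 10.3% and 11.2% in the Igf2bp2KO libraries. Since these shares can depend on the lengths of the lists, heights of 8, 10, 9 and 10 fragments were also used, which left 912, 842, 496 and 880 peaks. Then 50.5% and 53.0% of the Igf2bp2KO peaks overlapped the other Igf2bp2KO library, and 37.6% to 63.5% overlapped a Prmt6KO library. Prmt6KO 2 still held more of the Igf2bp2KO lists than the other Igf2bp2KO library did, at 63.5% and 60.0%. Prmt6KO 1 held less, at 41.9% and 37.6%. From the Prmt6KO side, 52.6% and 31.0% overlapped the other Prmt6KO library, and 42.3% to 52.0% an Igf2bp2KO library. Pairs share libraries, so no test was made.

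**Figure D3:**
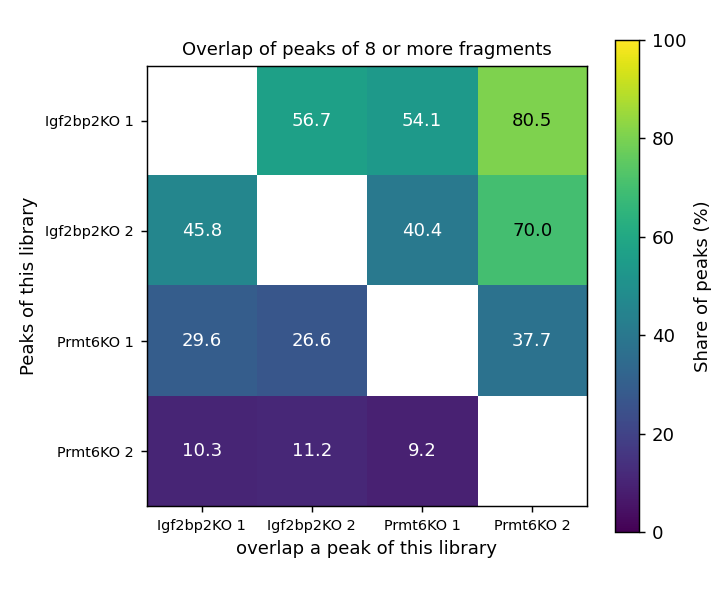
Share of the peaks of the library in each row that overlap a peak of the library in each column by 1 bp or more (percent, colour and printed value), for peaks of 8 or more fragments. The highest shares, 80.5% and 70.0%, are those of the Igf2bp2KO peaks in Prmt6KO 2, and the lowest row is that of Prmt6KO 2.

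Most Igf2bp2KO peaks had some Prmt6KO peak under them once the low Prmt6KO peaks were counted. Of the Igf2bp2KO 1 peaks, 95.2% and 96.1% overlapped a listed peak of any height in Prmt6KO 1 and 2, and of the Igf2bp2KO 2 peaks 82.5% and 88.9%. The Prmt6KO lists as a whole covered 214 and 109.7 Mb of these chromosomes. In the other direction the values barely moved, since the Igf2bp2KO lists hold almost nothing below 8 fragments.

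The tallest shared regions lay outside genes. The tallest was on chromosome 2 (chr2:98666044-98667472), with no gene within 100 kb, and held 394 and 394 fragments in Igf2bp2KO and 388 and 397 in Prmt6KO. Next to it on the same chromosome were 3 more of the 10 tallest. The second, on chromosome 9 (chr9:35305064-35305945), overlapped the long noncoding RNA Gm33838, 29106 bp from Rpusd4, and held 347, 337, 306 and 359. In fragments the knockouts overlapped at both sites, while in multiples of own background both Prmt6KO libraries were higher. Windows such as these on chromosomes 2 and 9 are known for very high read counts in many sequencing assays, and no input library was analysed here. A region of 38495 bp at the start of chromosome 9 (chr9:2999903-3038397) held 264, 247, 238 and 294 fragments.

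Among the 10 tallest shared regions, 1 lay in a gene and 2 near one. Chl1, a neural cell adhesion molecule, held 156, 169, 116 and 159 fragments at chr6:103648976-103649600. The region 21017 bp from Ly6c2, an antigen of myeloid and lymphoid cells, held 141, 158, 128 and 175 at chr15:75085400-75087143. Rpusd4, near the chromosome 9 site above, encodes a mitochondrial pseudouridine synthase. In fragments, Prmt6KO 1 was lowest at each of the 3 and the knockouts overlapped. In multiples of own background both Prmt6KO libraries were above both Igf2bp2KO libraries at each.

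The order of the knockouts at the shared regions depended on the scale. In fragments, both Igf2bp2KO summits were above both Prmt6KO summits in 100 of 243 regions (41.2%), and both Prmt6KO summits were above in 7 (2.88%). In multiples of the library's own background, Igf2bp2KO was higher in 21 (8.64%) and Prmt6KO in 80 (32.9%). Both Prmt6KO libraries had a lower background (0.736 and 1.21 fragments) than both Igf2bp2KO libraries (1.45 and 1.34). The part of this in the change of order was not tested. No direction for the shared regions as a whole was thus common to both scales.

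The 7 shared regions with more fragments in both Prmt6KO libraries had named genes at 5 of them and a ribosomal RNA sequence at another. At the Rn18s-rs5 pseudogene, a copy of 18S ribosomal RNA sequence, and the noncoding AY036118 (chr17:39842877-39848955), summits held 79 and 62 fragments in Igf2bp2KO and 107 and 179 in Prmt6KO. At Zc3h7a, a zinc finger protein that binds RNA (chr16:11143834-11144495), they held 42, 32, 56 and 120. At Lars2, the mitochondrial leucyl-tRNA synthetase (chr9:123461667-123462260), they held 37, 29, 43 and 95. In each of these, Prmt6KO 2 was the highest library in fragments and stood well above Prmt6KO 1. In multiples of own background Prmt6KO 1 and 2 stood at 145 and 148, 76.0 and 99.3, and 58.4 and 78.6. A site inside both Cmss1 and Filip1l, whose gene bodies overlap (chr16:57390959-57391821), held 21, 28, 60 and 99. Sfi1, a centrosome protein gene, had 2 of the regions, with 14, 14, 17 and 21 fragments at one and 12, 10, 13 and 23 at the other. The last, at chr3:5860221-5860892, had no gene within 100 kb and held 52, 54, 57 and 125.

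Regions of Prmt6KO alone were few, and the tallest of them were isolated sites in or near single genes. None of the 61 had a listed Igf2bp2KO peak, which the lists nearly fix, since they hold 0 and 12 peaks below 8 fragments. These regions are therefore places where nothing was listed, not places shown to lack signal. The tallest lay 7184 bp from Tra2a, which encodes a splicing regulator (chr6:49236347-49236736), with 19 and 38 fragments in Prmt6KO 1 and 2. Inside Cdk8, the kinase of the Mediator complex (chr5:146260687-146261409), the summits held 17 and 36 fragments. Inside Gphn, the gephyrin gene (chr12:78350810-78351177), they held 16 and 30. Inside Sspn, which encodes sarcospan of the dystrophin complex (chr6:145932526-145933108), they held 15 and 27. Prmt6KO 2 was the higher library at each of the 4, and neither Igf2bp2KO list had a peak there.

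Lower in the same group were the lncRNA D130009I18Rik (chr14:104715695-104716034) with 18 and 22 fragments and Arhgap21 (chr2:20899730-20900323) with 13 and 20. Jarid2, a subunit of the Polycomb repressive complex that methylates lysine 27 of histone H3, held 10 and 22 at chr13:44869465-44870104. The zinc finger genes Zfp992 and Zfp980 on chromosome 4 held 11 and 16, and 12 and 14. A site 9788 bp from Myl12b, a myosin light chain, held 9 and 21. In fragments Prmt6KO 2 was the higher library in all 10 of the tallest. In multiples of own background Prmt6KO 1 was higher at D130009I18Rik (24.4 against 18.2) and Arhgap21 (17.7 against 16.5). It was also higher at Zfp992 (14.9 against 13.2) and Zfp980 (16.3 against 11.6). At the rest of the 10 Prmt6KO 2 stayed higher. With 12 or more fragments asked for, 8 of 782 regions (1.02%) were of Prmt6KO alone. They were the sites of Tra2a, Cdk8, Gphn, Sspn, D130009I18Rik, Arhgap21 and Zfp980, and a site 26132 bp from 9530057J20Rik, where Igf2bp2KO 2 listed 11 fragments and which was not of Prmt6KO alone at 8.

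Regions of Igf2bp2KO alone were regions where the Prmt6KO peak was lower rather than absent from both libraries. All 22 had a listed peak in at least 1 Prmt6KO library, and 16 had one in both. The listed peaks, 19 in each Prmt6KO library, had medians of 5 and 7 fragments and reached 7 in each, just below the height asked for. The tallest lay 4746 bp from Speer4d, of the Speer family, whose genes are expressed in the testis (chr5:15613759-15614352), with 21 and 18 fragments in Igf2bp2KO and 5 and 7 in Prmt6KO. A site 8376 bp from Speer4e (chr5:14946852-14947125) held 22, 13, 6 and 7.

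A further 3 of the named sites lay inside genes. Ctnnd2, which encodes delta-catenin (chr15:30221930-30222239), held 14 and 12 fragments in Igf2bp2KO and 5 and 6 in Prmt6KO, and was the 1 region of the 22 outside every cluster. Gm40369, a predicted gene next to Ezh2 (chr6:47652849-47653291), held 17, 12, 7 and 5. A site in the body of Zfp979 (chr4:147633323-147633562) held 13, 13, 6 and 7, while the promoter window of the same gene was called in Prmt6KO alone. The other 5 of the 10 tallest lay near Gm21190, Gm21083, Gm17019, Gm15319 and Hjurp, the centromeric histone chaperone, with 11 to 15 fragments in Igf2bp2KO and at most 7 in Prmt6KO. With that height of 12 fragments, 72 of 782 regions (9.21%) were of Igf2bp2KO alone and 81 (10.4%) were shared. Of the 72, 63 had a peak of 8 or more fragments in a Prmt6KO library and 37 in both, and none lacked a listed peak in both.

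**Figure D4:**
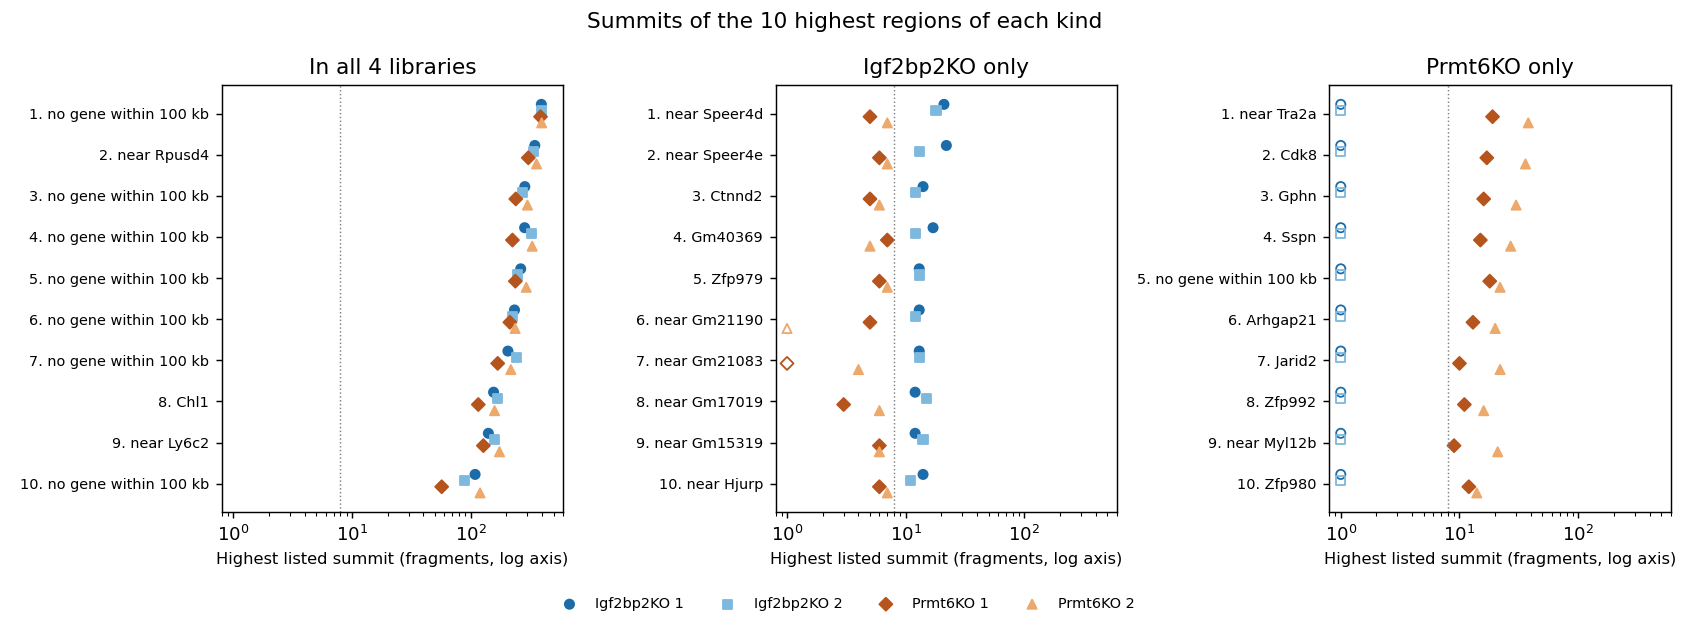
Summit height in fragments (log scale) of every library at the named regions of the 3 kinds. Open symbols at 1 mark a library with no listed peak, and the dotted line marks 8 fragments. The Igf2bp2KO lists start at 8 and 7 fragments and the Prmt6KO lists at 2 and 3, so low filled symbols can appear almost only for Prmt6KO, where they lie at 3 to 7.

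A larger share of the Igf2bp2KO peaks lay close together along the chromosomes. A cluster is a chain of 5 or more peaks or regions with gaps of at most 100 kb. Of the peaks of each list, 87.0% and 78.1% lay in clusters of that list in Igf2bp2KO and 38.7% and 23.4% in Prmt6KO, a mean difference of 51.5 percentage points (exact permutation p = 0.333). At 12 or more fragments the shares were 86.7% and 76.1% against 46.3% and 63.8%, so the groups lay closer. At 6 or more times background the difference was 25.9 points and the groups overlapped (exact permutation p = 1.0). With every listed peak the difference was −17.4 points. The Prmt6KO lists then hold 761463 and 396471 peaks on these chromosomes, so dense that gaps of 100 kb leave little room outside clusters. That value follows from the density of the lists and is no result. All 3 kinds of region lay mostly in clusters, with 205 of 243 shared regions, 21 of 22 of Igf2bp2KO alone and 45 of 61 of Prmt6KO alone.

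Chained over all 4 lists, 68 clusters held 1582 of the 6245 regions (25.3%) in 11.4 Mb. The 8 clusters with most regions held 884 of them in 3.07 Mb. They took 59.8% and 55.8% of the Igf2bp2KO peaks and 25.8% and 13.4% of the Prmt6KO peaks. In 22 clusters (32.4%) both Igf2bp2KO libraries had a larger share of their peaks than both Prmt6KO libraries, and in 9 (13.2%) the reverse held. These shares depend on list length, which was 5229 peaks in Prmt6KO 2. In plain number of peaks the knockouts overlapped in most of the 22. By number, more clusters had both Prmt6KO libraries higher than had both Igf2bp2KO libraries higher. Each of the 9 held no Igf2bp2KO peak and 1 peak of Prmt6KO 1. No Igf2bp2KO peak lay in 17 of the 68.

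In both Speer clusters of chromosome 5, each Igf2bp2KO library also had more peaks in plain number than each Prmt6KO library. From Gm21149 to Speer4c (chr5:15457651-15714611) the lists held 135 and 144 peaks in Igf2bp2KO and 56 and 110 in Prmt6KO, with 37 shared regions and none of Prmt6KO alone. From Gm9758 to Gm17019, around Speer4e (chr5:14900010-15062591), they held 99, 88, 44 and 64, with 29 shared regions. At 12 or more fragments the first of these took 18.3% and 18.7% of the Igf2bp2KO peaks and 11.6% and 11.8% of the Prmt6KO peaks. The groups did not overlap there. A cluster of chromosome 8 around 9530057J20Rik also had more peaks in Igf2bp2KO, with 59, 79, 33 and 57, but at 12 or more fragments its shares overlapped, at 6.19%, 7.63%, 6.61% and 6.17%. A larger number of peaks need not mean more covered sequence. Over all 243 shared regions, 483 and 470 Igf2bp2KO peaks covered 303.7 and 306.1 kb. There 288 and 337 Prmt6KO peaks covered 486.7 and 582.7 kb. Covered length within single clusters was not compared.

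In the 2 largest clusters the knockouts overlapped in number of peaks. From Zfp993 to Zfp984 on chromosome 4 (chr4:146891761-147805001), an array of zinc finger genes, the lists held 57, 94, 48 and 130 peaks in 176 regions. From Gm15319 to Gm21119 on chromosome 8 (chr8:20259076-20712036) they held 142, 144, 60 and 150 peaks, and at 12 or more fragments 13.1%, 13.1%, 4.13% and 12.3% of each list. Prmt6KO 1, with 5 such peaks there, was the lowest. The Prl2c3 and Prl2c2 cluster of chromosome 13, with genes of prolactin-like hormones, held 7, 28, 20 and 83 peaks, with 1 shared region and 8 of Prmt6KO alone. The chromosome 1 cluster from A530032D15Rik to Gm7592 held 26, 12, 24 and 62, with 1 shared region and 7 of Prmt6KO alone. In these last 2 no region was of Igf2bp2KO alone.

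**Figure D5:**
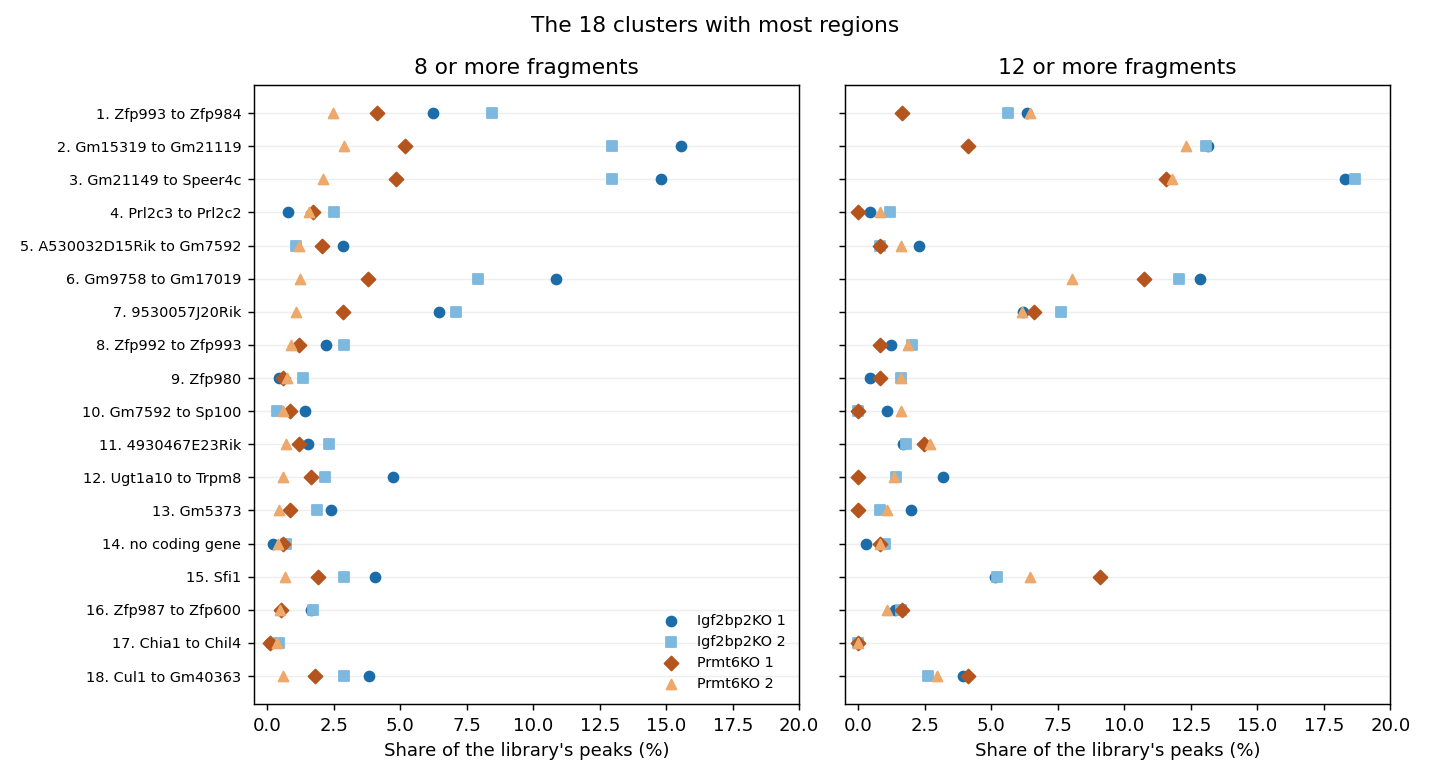
Share of each library's peaks (percent, horizontal) in each of the 18 clusters with most regions, at 8 or more fragments in the left panel and 12 or more in the right, one symbol per library. At 8 or more fragments the largest share is the 15.6% of Igf2bp2KO 1 in the Gm15319 cluster, and at 12 or more the Igf2bp2KO shares of 18.3% and 18.7% in the Gm21149 to Speer4c cluster lie above both Prmt6KO shares.

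Summits outside protein-coding genes made up 67.3% and 68.9% of the peaks in Igf2bp2KO and 64.5% and 66.4% in Prmt6KO, with 60.0% of the genome outside such genes. The mean difference was 2.70 percentage points (exact permutation p = 0.333). It changed sign to −6.12 when genes of every type were counted and to −0.57 without the 15 to 16 Mb interval of chromosome 5, and was 1.74 without Prmt6KO 1, so no direction held across settings. Windows of 1 kb either side of both ends of a protein-coding gene were touched by 10.4% and 7.19% of the peaks in Igf2bp2KO and 7.51% and 3.61% in Prmt6KO (exact permutation p = 0.667), where 3.04% of the genome lies in them. The groups overlapped. The difference of 3.24 percentage points was 1.30 without Prmt6KO 2, 1.63 without Igf2bp2KO 1 and 5.19 without Prmt6KO 1, and −1.95 at 12 or more fragments.

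Few genes carried a peak in both libraries of a knockout. Of 20665 protein-coding genes, 75 (0.363%) had a peak in the body or within 1 kb in both Igf2bp2KO libraries, 152 (0.736%) in both Prmt6KO libraries and 68 (0.329%) in all 4. None (0%) had one in both Igf2bp2KO libraries and neither Prmt6KO library, and 70 (0.339%) had one in both Prmt6KO libraries and neither Igf2bp2KO library. The 68 had a median length of 33.0 kb and the 70 a median of 529.6 kb, against 17.5 kb for all genes. Among the 70 were Lsamp, Macrod2, Pcdh15 and Magi2, each with summits of 8 to 10 fragments. The peaks in both replicates need not overlap each other under this rule.

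Zinc finger genes with a peak in all 4 libraries lay together. Of 388 Zfp genes, 10 had a peak in both Igf2bp2KO libraries, 12 in both Prmt6KO libraries and 9 in all 4. All 9 were on chromosome 4 between Zfp980 and Zfp979. The tallest peaks of Zfp600 held 16, 17, 17 and 16 fragments and those of Zfp978 held 16, 15, 16 and 18. The knockouts overlapped in both. Of 10 Speer genes, Speer4c, Speer4d and Speer4e had a peak in all 4, and in all 3 both Igf2bp2KO libraries were above Prmt6KO 1. At Speer4d the tallest peaks held 20, 19, 12 and 14 fragments and at Speer4c 21, 16, 11 and 13, with the groups apart at both.

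All 9 Ugt1a genes, which encode enzymes that glucuronidate bilirubin and drugs, had a peak in all 4 libraries. Their gene bodies overlap and share the same peaks, with tallest summits of 19, 15, 10 and 14 fragments at Ugt1a1. Of predicted genes with Gm names, 21 of 965 had a peak in all 4. Of Sp100, Sp110 and Sp140, a nuclear body family of immune cells, 2 had a peak in both Prmt6KO libraries and none in both Igf2bp2KO libraries. Sp140 held summits of 10 and 15 fragments in Prmt6KO and 16 in Igf2bp2KO 1, with none in Igf2bp2KO 2, so the family was not empty in Igf2bp2KO. Over all protein-coding genes the shares were 0.363% in both Igf2bp2KO and 0.736% in both Prmt6KO libraries, so a count of 0 in a small family is near the background. The 1104 olfactory receptor (Olfr) and 354 vomeronasal receptor (Vmn) genes had none called in both libraries of either knockout. The same held for 71 defensins (Defb and Defa), 22 major urinary proteins (Mup), 80 ribosomal protein genes (Rpl and Rps), 39 Hox genes and 5 chitinase-like genes (Chil). The Olfr and Vmn families are not small, but their genes are short, with median lengths of 0.95 and 0.96 kb against 17.5 kb for all genes. A peak in any library was found at 12 Olfr and 21 Vmn genes. The part of gene length in these counts was not tested.

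The genes of the study's title and of the knockouts carried no tall peak. Prmt6, Igf2bp2 and Mfsd2a, a lipid transporter gene, had 0 peaks of 8 or more fragments within 1 kb of the gene body in each of the 4 libraries. None of the 8 Prmt genes, which encode arginine methyltransferases, and none of the 8 Igf2bp and Ythd genes, which encode m6A readers, had one in any library. Since 0.426% to 5.70% of all protein-coding genes had a peak per library, 0 of 8 is near that background. A peak list cannot show whether a gene is deleted, so the genotypes could not be checked here.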

How the data were processed

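H3R2me2a ChIP-seq peak lists of 2 Igf2bp2KO and 2 Prmt6KO libraries were analysed, with groups and replicate numbers from the sample titles. Wild-type lists and the 3 input samples were not used here. MACS2 2.1.0 and the build mm10 are named in the submitters' processing notes, as are HISAT2, Trim Galore, bedtools and bcl2fastq 2.17, with no role or settings. The authors deposited 1 list per library, with replicates not pooled. Per the file headers, each peak has a summit pileup, which is a coverage signal in fragments. It also has a fold enrichment, a ratio of signal to background, in the deposited lists. The −log10 of the p-value and q-value in the deposited lists are the authors' own, and served only to describe peaks within a list. All peaks of each list matched between the 2 deposited forms.

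Fold enrichment equalled the pileup plus 1 over a constant background plus 1, to within 0.135% for every peak, which gave the background used here. No background that varies along the genome is visible within a list. Igf2bp2KO pileups were multiples of 0.277 and 0.302 and were divided by these steps, leaving values within 0.0200 of a whole number. Read totals are not given in the sources used here, so depth is known only through the background in fragments.

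Peaks of 8 or more fragments on chromosomes 1 to 19 were kept. Overlap meant 1 bp or more. Regions are merged peaks of the 4 lists. A region was called shared with a peak in all 4 libraries, and of one knockout alone with a peak in both its libraries and neither of the other's. Gene positions came from the RefSeq table of GRCm38.p6, which gives no strand or exons, so both gene ends were used and exons, introns and UTRs were not separated. Promoters came from the RefSeq promoter table. Differences between groups were tested with two-sided exact permutation tests over 6 splits. Shares have Wilson 95% intervals. Reads of amplified libraries are not independent molecules, so intervals cover counting error only. Counts of regions, genes and clusters have no test.

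The genes named are Prmt6, Igf2bp2, Mfsd2a, those in or within 100 kb of the 10 tallest regions of each kind (by lowest summit over own background), those of the 8 clusters with most regions, and family members with a call. Genes of the other regions named were chosen after their values were seen. Members and gene lists were chosen with earlier results of these data known. The alternatives were other heights, overlap rules, gaps, windows and gene sets, chromosome X, leaving out each library or part of chromosome 5, and a replicate block. Lists of like length and 10 times background were added after seeing the data. Region calling was checked on simulated lists. Python 3.11.15, pandas 2.3.3, numpy 2.4.6, scipy 1.17.1 and matplotlib 3.10.9 were used.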

Additional observations from a re-analysis of the deposited data

Results flagged for a closer look

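Peaks of 8 or more fragments also stood outside the chromosomes compared, in sequence that entered no result above. On unplaced sequence the lists held 60 and 38 such peaks in Igf2bp2KO 1 and 2 and 54 and 139 in Prmt6KO 1 and 2, with summits of up to 258, 239, 236 and 274 fragments. On chromosome Y they held 1, 2, 10 and 24. On the mitochondrial genome they held 6 peaks in Igf2bp2KO 1, none in Igf2bp2KO 2, 3 in Prmt6KO 1 and 1 in Prmt6KO 2. No control library was used to set a level for these sequences, so the counts are a description.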

How the results depend on the processing

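Of 147 recomputed values of 11 results, 7 changed direction and 32 overlaps or counts moved; the causes were not tested. The other 108 kept the sign of a difference, whatever its size, or stayed within the spread of an overlap or 1.5 times a count. Peak number ran to −4.14 at 6 or more times background and −9.08 with every listed peak, and covered length to −0.075 at 12 or more fragments and −8.32 with every listed peak. The cluster difference was 25.9 points at 6 or more times background (exact permutation p = 1.0). At 12 or more fragments the log2 difference in peak number was 1.43, the gene-end difference −1.95 points, the overlap 39.2% from the Igf2bp2KO side and 70.3% from the Prmt6KO side, and the regions 81 shared, 72 of Igf2bp2KO alone and 8 of Prmt6KO alone. At 6 or more times background, overlap from the Prmt6KO side was 5.80%, with 6 and 400 regions of one knockout alone. With every listed peak the width difference was 101 bp, the cluster difference −17.4 points, the overlaps 90.6% and 0.144%, and the regions 394, 0 and 82773. That cluster difference, counted among the 7 above, follows from the density of the Prmt6KO lists and is no result. With lists of like length, heights were set to keep each list at 912 peaks or fewer. The peak number difference of 0.41, counted among the 7 above, follows from that choice and is no result. Overlap from the Prmt6KO side was then 45.8%, and the regions of one knockout alone 54 and 19. At 10 or more times background that overlap was 34.4%, with 106 shared regions and 6 of Igf2bp2KO alone. Asking for an overlap of 50% of both peaks gave 13.8% and 6.49%, and matching summits within 200 bp gave 105 shared regions and 113 of Igf2bp2KO alone. The outside-gene difference was −0.57 points without 15 to 16 Mb of chromosome 5 and −6.12 with all genes of the table. Leaving out 1 library in turn gave peak number −2.38 to −0.20, covered length −2.60 to −1.04, width −201 to −43 bp, clusters 43.9 to 59.1 points, gene ends 1.30 to 5.19, outside genes 1.74 to 3.65, overlap 47.2% to 75.2% and 10.7% to 28.1%, and regions 256 to 387, 35 to 299 and 94 to 4510. With the replicate block the differences were the same, at −1.29 for peak number and −1.82 for covered length, and the exact sign-flip p was 0.50, the smallest that 2 pairs allow. Deviations of same-numbered libraries correlated at 0.19 over 243 shared regions, and the numbers are only shared numbers. The low background limits all lists: a summit of 8 fragments is 5.51 to 10.9 times it.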
